A study of Sus scrofa with 5 samples.

Results

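Matrix metalloproteinases (MMP), ADAM and ADAMTS proteases, the ADAMTS-like proteins (ADAMTSL) and the tissue inhibitors of metalloproteinases (TIMP) were followed in biopsies of a pig kidney xenograft. Members were all symbols of the pig gene table that start with MMP, TIMP or ADAM and a number, or with ADAMTS. The rule goes by name alone, but it was set with earlier results of these data known. They numbered 66 of 15216 symbols, with 19 MMP, 20 ADAM, 19 ADAMTS, 5 ADAMTSL and 3 TIMP genes. The pig counts held no entry under the symbols MMP1, MMP10 and TIMP2, so no pig values are given for them.

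Xenograft material was 1 kidney core biopsy each at 12, 24 and 48 h in the second transplantation case of the study, labelled as treated by xenotransplantation. Control material was 2 libraries, replicates 1 and 2, from kidney that was not transplanted, labelled 0 h. All 5 libraries were made from total RNA after removal of ribosomal RNA, and the cell type field of the labels names dissociated kidney cells although the protocol describes homogenised biopsies. The sources used here do not give the strain or genotype of the pigs, the recipient, its treatment, or whether the control libraries came from separate animals, so a p-value covers only the spread among the 5 libraries, which may be technical.

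Total counts in the pig table were 63237386, 66168403 and 56129360 in the 12, 24 and 48 h biopsies and 65918276 and 71107513 in controls 1 and 2. Mitochondrially encoded genes took 12.0, 14.5 and 11.8% of the counts in the biopsies, against 21.9 and 33.4% in the controls. Levels are CPM (counts per library total, after TMM scaling of that total to the bulk of genes), which allows a gene to be compared between libraries, but not with another gene of different length. Kidney markers were present in all libraries, and the summed level of 8 proximal tubule markers was 7381, 9278 and 7240 CPM in the biopsies against 20181 and 21398 CPM in the controls. In whole tissue, fewer cells of a type and less RNA per cell cannot be told apart.

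Apart from the ADAMTS-like proteins, which lack the protease domain, these proteins share a zinc-dependent protease fold or restrain enzymes that have it. MMPs are made as inactive precursors and cut collagens, laminins, other proteases and cytokines, ADAMs are membrane proteins that release the outer parts of growth factors and receptors, and ADAMTS enzymes are secreted and trim proteoglycans, procollagens and von Willebrand factor. TIMPs bind the active site of the enzymes, and in the kidney the balance of both groups is studied in tubular injury, matrix turnover and fibrosis.

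Of the 66 genes, 53 passed the minimum on low counts and were tested, 10 had too few counts and 3 (ADAM21, ADAM30 and MMP20) had none in any library. In the quasi-likelihood test of edgeR, adjusted by Benjamini-Hochberg over 12612 genes, 21 members were higher and 4 were lower in the xenograft than in the controls at an adjusted p below 0.05, and 28 were not called. The share of all tested genes called higher was 18.5% and the share called lower was 19%, against 39.6% and 7.55% of the tested members. The median log2 fold change was 0.57 over tested members and 0.03 over all tested genes. MMP3, placed at the lower bound given below, leaves the members' median where it is. ADAMTS19, MMP24 and MMP3 passed the minimum through the biopsies alone, so these shares describe the genes that passed and not the family as a whole. MMP24 and MMP3 are among the 21, and their calls are given as a description.

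By group, 7 of 15 tested MMP genes were called higher and 1 lower. Of 13 tested ADAM genes, 7 were higher and 1 was lower. Of 17 tested ADAMTS genes, 5 were higher and 1 was lower, and of the 5 ADAMTSL genes 1 was lower and 4 were not called. Of 3 TIMP genes, 2 were higher. Of the tested members, 28 had every biopsy above both controls and 8 had every biopsy below both, set against 33.7% and 32.5% of all tested genes. The control pair carried much of the precision, and calls fell over all tested genes as well as over the members when a control was left out. A fit without 1 control leaves a single control library, so the number of calls in it is not read as a result about the members.

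**Figure D1:**
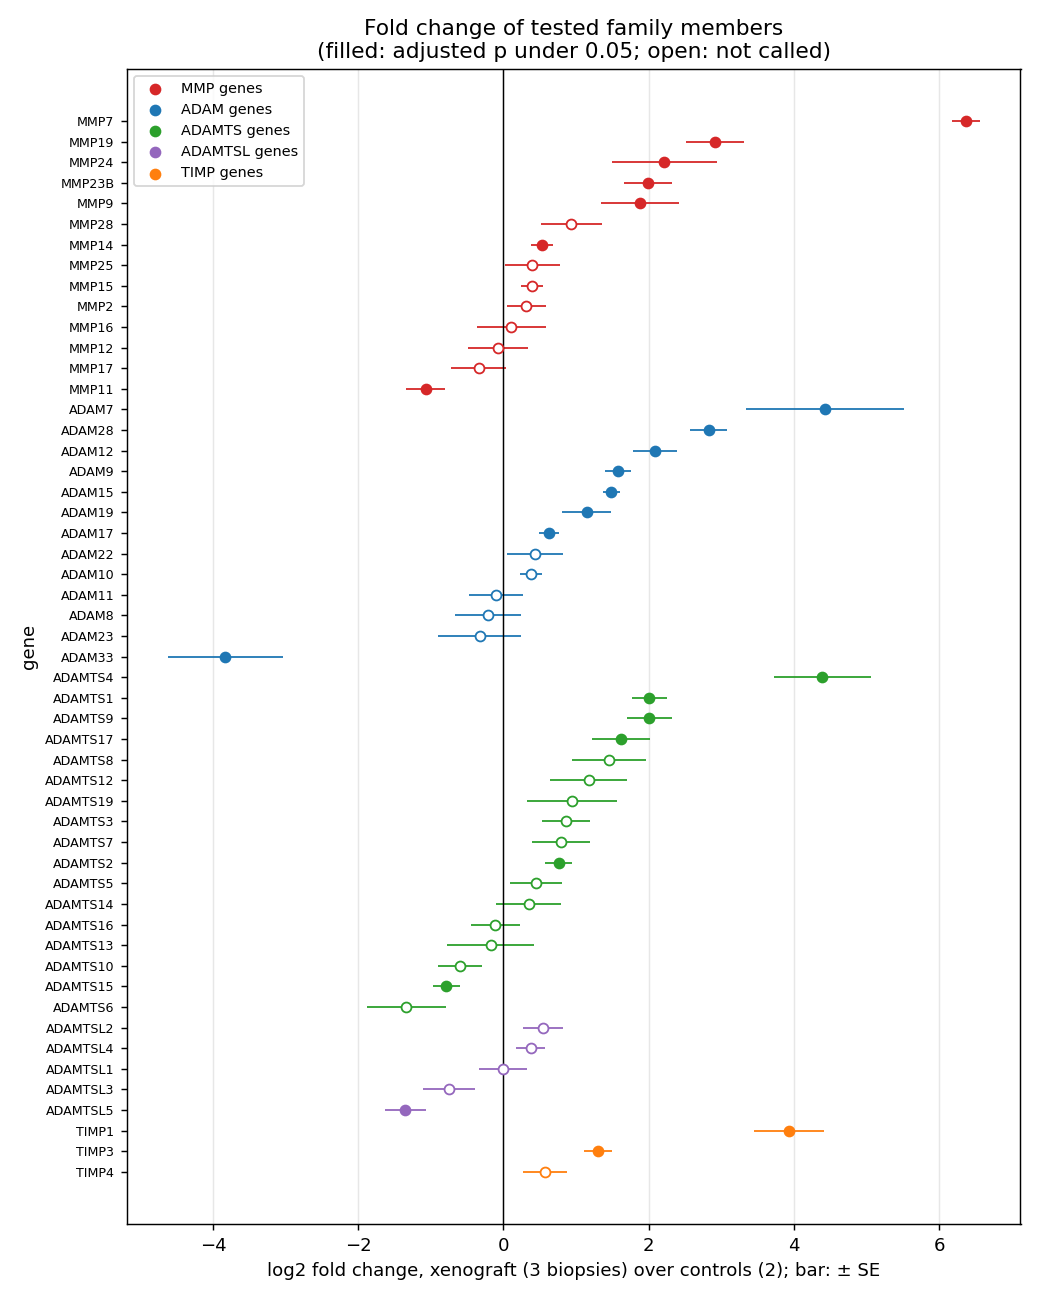
Each point is 1 tested member, with the log2 fold change of the 3 xenograft biopsies over the 2 controls on the horizontal axis, its standard error as a bar, and colour for the gene group. Filled points passed an adjusted p of 0.05. MMP7 stands farthest to the right at 6.37 and ADAM33 farthest to the left at -3.83, and MMP3, which had no count in either control, is not drawn.

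MMP7, or matrilysin, a small secreted enzyme of epithelial cells that is known from injured renal tubules, was among the members with the largest change. It stood at 459.7, 402 and 399 CPM in the 12, 24 and 48 h biopsies, against 5.31 and 4.82 CPM in controls 1 and 2. The 3 biopsies were close to each other and far above both controls. The fold change was 82.9, or 6.37 ± 0.19 on the log2 scale (SE; 3 biopsies against 2 controls, edgeR adjusted p = 5.2e-05), and leaving out any single library gave 79.0-fold to 87.1-fold.

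MMP3, or stromelysin 1, which cuts several matrix proteins and can activate other MMP precursors, had no count in either control. Its counts were 59, 34 and 159 in the 12, 24 and 48 h biopsies, against 0 and 0 in the controls. Against a floor of 3 counts over the control group, MMP3 was at least 44.2-fold higher in the xenograft, a bound that covers counting error only (edgeR adjusted p = 0.011). MMP3 could enter the test only by being higher in the biopsies, so its call is a description. The bound was 23.9-fold without the 48 h biopsy, which held most of the counts. The call was lost without either control, with an adjusted p of up to 0.066.

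MMP19, an enzyme that cuts basement membrane proteins, rose 7.53-fold (log2 2.91 ± 0.40, edgeR adjusted p = 0.0029). Its levels were 9.57, 13.5 and 20.3 CPM in the 12, 24 and 48 h biopsies, against 2.38 and 1.44 CPM in the controls. The lowest biopsy was above the higher control, and the gene stayed called in every fit that left out 1 library.

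MMP24, a membrane-anchored MMP known mainly from the nervous system, was rare in all libraries, at 0.677, 0.261 and 0.209 CPM in the 12, 24 and 48 h biopsies and 0.067 and 0.096 CPM in the controls. MMP24 could enter the test only by being higher in the biopsies, so its call is a description. Its rise of 4.65-fold was at the edge of the threshold (log2 2.22 ± 0.73, edgeR adjusted p = 0.049). It was not called by DESeq2, or without control 1, control 2, the 12 h or the 24 h biopsy, and the fold was 2.87 without the 12 h biopsy.

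MMP9, or gelatinase B, a collagen IV-cutting enzyme stored in neutrophil granules, was likewise rare in the pig counts. It stood at 0.470, 0.563 and 0.834 CPM in the 12, 24 and 48 h biopsies, against 0.234 and 0.096 CPM in the controls. All biopsies were above both controls and the gene rose 3.68-fold (log2 1.88 ± 0.54, edgeR adjusted p = 0.031). The call was lost without control 1, control 2 or the 24 h biopsy, and the fold was 6.37 without control 1. Pig counts of the 4 neutrophil markers in the pig table summed to 1.01, 1.83 and 1.36 CPM in the 12, 24 and 48 h biopsies. In the controls they summed to 0.285 and 0.749 CPM. The part of these cells in the rise of MMP9 was not tested. Nor was that of human reads, whose MMP9 counts are given below.

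MMP14, a membrane-anchored collagenase that activates the MMP2 precursor, rose 1.44-fold (log2 0.53 ± 0.15, edgeR adjusted p = 0.033). MMP14 stood at 46.9, 57.1 and 62.7 CPM in the 12, 24 and 48 h biopsies, against 40.0 and 37.0 CPM in the controls. The groups did not overlap, but leaving out control 1, control 2, the 24 h or the 48 h biopsy ended the call, with an adjusted p of up to 0.22. MMP23B, whose precursor sits in the membrane by its amino end, rose 3.98-fold (log2 1.99 ± 0.32, edgeR adjusted p = 0.0042), a call that was lost narrowly without control 1 (adjusted p = 0.051).

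MMP2, or gelatinase A, the partner of MMP14, was not called between the groups. MMP2 levels were 23.7, 36.04 and 46.8 CPM in the 12, 24 and 48 h biopsies, against 29.9 and 27.2 CPM in the controls. The 12 h biopsy lay below both controls and the later biopsies above both (log2 0.32 ± 0.27, edgeR adjusted p = 0.39). Without the 12 h biopsy MMP2 was called higher (adjusted p = 0.029).

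MMP11, or stromelysin 3, which is activated inside the cell by furin, was the tested MMP gene called lower. It stood at 5.58, 7.49 and 10.5 CPM in the 12, 24 and 48 h biopsies, against 14.4 and 18.7 CPM in the controls. Every biopsy was below both controls, and MMP11 was 2.10-fold lower (log2 -1.07 ± 0.27, edgeR adjusted p = 0.022). The call was lost without control 1, control 2 or the 24 h biopsy, with an adjusted p of up to 0.18.

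MMP12, MMP15, MMP16, MMP17, MMP25 and MMP28 were tested and not called, with log2 fold changes between -0.34 and 0.94. Rare MMP genes included MMP27, with 0 counts in each biopsy and 10 and 8 counts in the controls. It was below the minimum for testing and was at least 11.4-fold lower in the xenograft against a floor of 3 counts over the biopsies. MMP8, the neutrophil collagenase, had 2, 13 and 0 counts in the 12, 24 and 48 h biopsies and 2 and 1 in the controls, and MMP13 had between 4 and 12 in any library. In the RefSeq annotation of the assembly Sscrofa11.1, MMP7, MMP20, MMP27, MMP8, MMP1, MMP3, MMP12 and MMP13 follow each other with no other protein-coding gene between. Within that run MMP7 and MMP3 rose, MMP12 was not called (log2 -0.08 ± 0.41), and MMP20 had no counts.

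**Figure D2:**
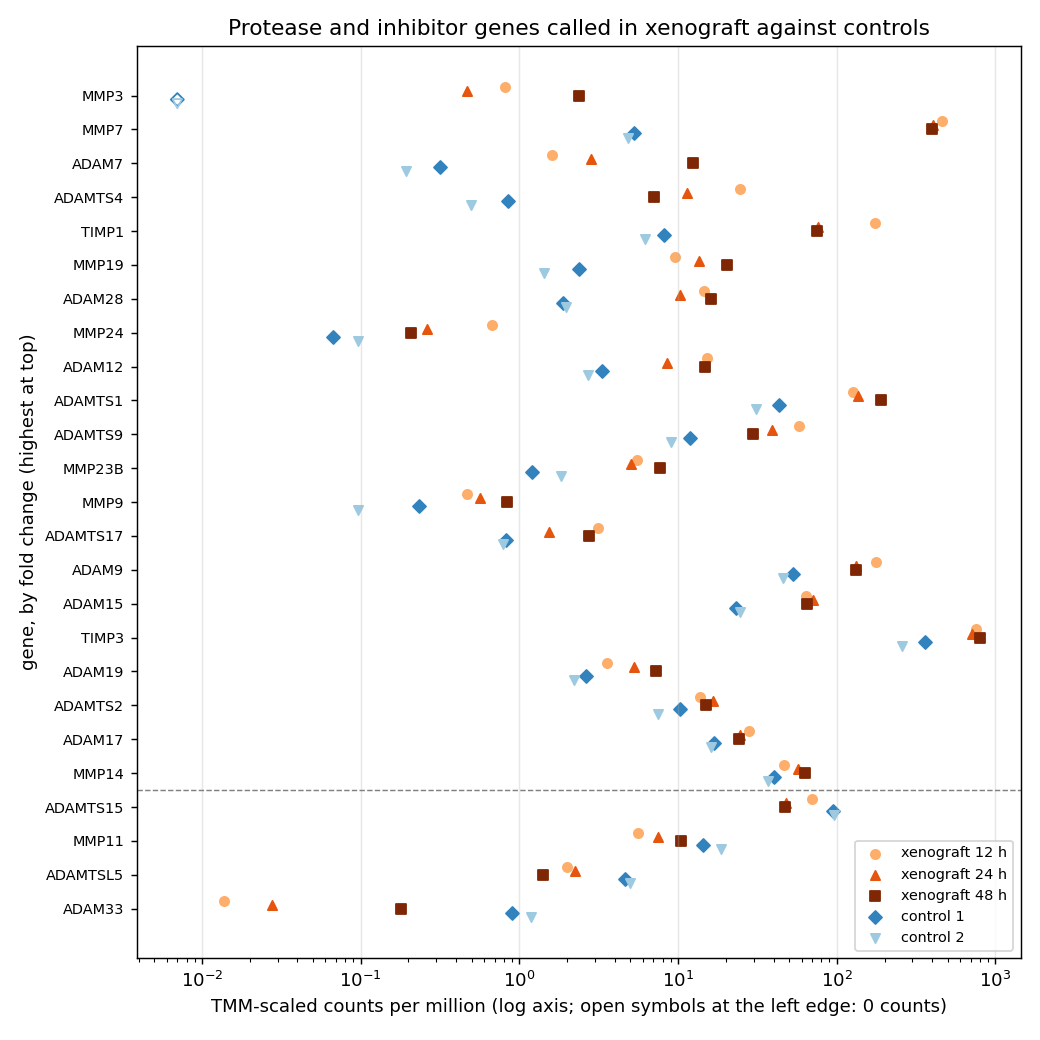
TMM-scaled CPM on a log axis are shown in each of the 5 libraries for the 25 called members, ordered by fold change, with the lower ones under the dashed line. Symbols and colours mark the 12, 24 and 48 h biopsies and the 2 controls, and open symbols at the left edge stand for 0 counts. For MMP7 the biopsies lie between 399 and 459.7 CPM and the controls at 5.31 and 4.82 CPM, and for the 4 genes under the line every biopsy lies left of both controls.

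ADAM17, or TACE, which releases TNF and ligands of the EGF receptor, stood at 27.9, 24.5 and 24.2 CPM in the 12, 24 and 48 h biopsies, against 16.8 and 16.2 CPM in the controls. The groups were well apart, and ADAM17 rose 1.54-fold (log2 0.63 ± 0.13, edgeR adjusted p = 0.011), a call lost without either control (adjusted p up to 0.11). ADAM10, a close relative of ADAM17, which cuts Notch receptors and cadherins, stood at 134.8, 110.9 and 104.3 CPM in the 12, 24 and 48 h biopsies, against 91.8 and 87.3 CPM in the controls. All biopsies were above both controls, but ADAM10 was not called (log2 0.38 ± 0.15, edgeR adjusted p = 0.078). Upper quartile scaling (adjusted p = 0.036) or leaving out the 48 h biopsy (adjusted p = 0.045) brought it under the threshold.

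ADAM9, a widely expressed sheddase, rose 2.97-fold. Its levels were 177, 132.7 and 132.2 CPM in the 12, 24 and 48 h biopsies, against 53.3 and 45.8 CPM in the controls (log2 1.57 ± 0.18, edgeR adjusted p = 0.0012). ADAM15, an adhesion-related protease that carries an integrin-binding motif, rose 2.81-fold (log2 1.49 ± 0.12, edgeR adjusted p = 5.7e-04). Both stayed called when any single library was left out.

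ADAM28, a protease known from lymphocytes and some epithelia, stood at 14.6, 10.3 and 16.2 CPM in the 12, 24 and 48 h biopsies, against 1.88 and 1.98 CPM in the controls. It rose 7.09-fold (log2 2.83 ± 0.26, edgeR adjusted p = 6.8e-04). ADAM12, which cuts insulin-like growth factor binding proteins and is known from mesenchymal cells, stood at 15.2, 8.52 and 14.8 CPM in the 12, 24 and 48 h biopsies, against 3.30 and 2.71 CPM in the controls. ADAM12 rose 4.27-fold (log2 2.09 ± 0.30, edgeR adjusted p = 0.0028). In both genes the 24 h biopsy was the lowest of the 3 and still well above the controls, and both calls held without any single library.

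ADAM7, a member without protease activity that is known from the epididymis, showed the widest spread among biopsies of the called ADAM genes that rose. It stood at 1.62, 2.83 and 12.3 CPM in the 12, 24 and 48 h biopsies, against 0.318 and 0.192 CPM in the controls. ADAM7 rose 21.6-fold (log2 4.43 ± 1.09, edgeR adjusted p = 0.023), and 8.59-fold without the 48 h biopsy. The call was lost without either control. In the Sscrofa11.1 annotation ADAM28 and ADAM7 are neighbours on either side of ADAMDEC1, which had no pig counts. ADAM19, a relative of ADAM12, rose 2.21-fold (log2 1.15 ± 0.34, edgeR adjusted p = 0.036) and lost its call without control 1, control 2 or the 24 h biopsy.

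ADAM33, a gene of mesenchymal cells best known as an asthma susceptibility gene, was nearly absent from the early biopsies. Its counts were 1, 2 and 12 in the 12, 24 and 48 h biopsies, against 54 and 62 in the controls. On the CPM scale these were 0.0138, 0.0275 and 0.179 against 0.904 and 1.19, and the gene was 14.2-fold lower (log2 -3.83 ± 0.79, edgeR adjusted p = 0.011). The call was lost without either control, and over the fits that left out 1 library the xenograft level ran between 0.0216 and 0.0984 times that of the controls, farthest from the full fit without the 48 h biopsy.

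ADAM8, a leukocyte sheddase, was not called in the pig counts. It stood at 0.774, 0.467 and 0.313 CPM in the 12, 24 and 48 h biopsies, against 0.586 and 0.614 CPM in the controls, so that the biopsies lay on both sides of the controls (log2 -0.21 ± 0.46, edgeR adjusted p = 0.74). The other tested ADAM genes that were not called were ADAM11, ADAM22 and ADAM23, with log2 fold changes between -0.33 and 0.44. ADAM2, ADAM18, ADAM20, ADAM32 and ADAM3A, which belong mostly to the testis, had at most 5 counts in any library.

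ADAMTS4, or aggrecanase 1, a proteoglycan-cutting enzyme, stood at 24.6, 11.5 and 7.05 CPM in the 12, 24 and 48 h biopsies, against 0.854 and 0.499 CPM in the controls. It rose 21.0-fold (log2 4.39 ± 0.67, edgeR adjusted p = 0.0046), with the highest level at 12 h. Leaving out the 12 h biopsy gave the lowest fold of 13.6, and the call was lost without control 2 (adjusted p = 0.058).

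ADAMTS1, which cuts versican and aggrecan and also inhibits blood vessel growth, stood at 126, 136 and 189.5 CPM in the 12, 24 and 48 h biopsies, against 43.6 and 31.2 CPM in the controls. It rose 4.03-fold (log2 2.01 ± 0.24, edgeR adjusted p = 0.0015) and stayed called without any single library. ADAMTS9, another versican-cutting enzyme, also rose 4.03-fold (log2 2.01 ± 0.31, edgeR adjusted p = 0.0042), and lost its call without control 2 (adjusted p = 0.059). Its highest biopsy was that at 12 h and its lowest that at 48 h, with 57.7, 39.0 and 29.8 CPM against 11.9 and 9.02 CPM in the controls.

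ADAMTS5, or aggrecanase 2, the second well-known aggrecan-cutting enzyme, stood at 2.13, 2.14 and 3.63 CPM in the 12, 24 and 48 h biopsies, against 2.26 and 1.59 CPM in the controls. The early biopsies lay between the controls and ADAMTS5 was not called (log2 0.45 ± 0.36, edgeR adjusted p = 0.36). ADAMTS13, which cuts von Willebrand factor, was rare, with 6, 10 and 16 counts in the biopsies and 8 and 11 in the controls. The groups overlapped and ADAMTS13 was not called (log2 -0.17 ± 0.60, edgeR adjusted p = 0.84), and its sign turned without control 2 (0.18) or without the 12 h biopsy (0.12).

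ADAMTS17, which is linked to fibrillin microfibrils, and ADAMTS2, which removes the amino propeptide of fibrillar procollagens, completed the ADAMTS genes that rose. ADAMTS17 rose 3.07-fold (log2 1.62 ± 0.39, edgeR adjusted p = 0.018) and ADAMTS2 1.70-fold (log2 0.76 ± 0.19, edgeR adjusted p = 0.019). ADAMTS17 lost its call without either control, and ADAMTS2 without control 2 or the 24 h biopsy.

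ADAMTS15, a versican-cutting enzyme, fell. It stood at 70.3, 48.0 and 47.5 CPM in the 12, 24 and 48 h biopsies, against 94.8 and 95.8 CPM in the controls. Every biopsy was below both controls and the gene was 1.72-fold lower (log2 -0.79 ± 0.19, edgeR adjusted p = 0.017), a call lost without control 1, control 2 or the 24 h biopsy. ADAMTS8, its neighbour in Sscrofa11.1, was rare and not called (log2 1.46 ± 0.50, edgeR adjusted p = 0.058).

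ADAMTS-like proteins lack the protease domain and bind matrix fibres. ADAMTSL5, which binds fibrillin, stood at 1.99, 2.24 and 1.41 CPM in the 12, 24 and 48 h biopsies, against 4.62 and 4.97 CPM in the controls. The gene was 2.55-fold lower (log2 -1.35 ± 0.28, edgeR adjusted p = 0.011), and the call was lost without either control. The other 4 ADAMTSL genes had log2 fold changes between -0.75 and 0.54 and were not called. ADAMTS3, ADAMTS7, ADAMTS10, ADAMTS14, ADAMTS16 and ADAMTS19 were tested and not called, with log2 fold changes between -0.60 and 0.94, while ADAMTS18 and ADAMTS20 had at most 16 counts in any library.

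Inhibitor genes were higher where they were called. TIMP1, a secreted inhibitor of most MMPs that is induced in many injured tissues, stood at 174, 76.6 and 75.5 CPM in the 12, 24 and 48 h biopsies, against 8.12 and 6.16 CPM in the controls. The 12 h biopsy was the highest, and the lowest biopsy was still far above both controls. TIMP1 rose 15.2-fold (log2 3.93 ± 0.48, edgeR adjusted p = 0.0024), between 10.6-fold and 17.6-fold when a library was left out.

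TIMP3, which is bound to the matrix and also inhibits ADAM17 and aggrecanases, stood at 755, 712 and 803.5 CPM in the 12, 24 and 48 h biopsies, against 358 and 256 CPM in the controls. Biopsies were close to each other and TIMP3 rose 2.47-fold (log2 1.30 ± 0.19, edgeR adjusted p = 0.0030). TIMP4, whose expression is more restricted, stood at 2.58, 3.09 and 3.40 CPM in the 12, 24 and 48 h biopsies, against 2.41 and 1.65 CPM in the controls. Each biopsy was above both controls, but TIMP4 was not called (log2 0.57 ± 0.30, edgeR adjusted p = 0.17).

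TIMP1, TIMP3 and TIMP4 each overlap a synapsin gene in the Sscrofa11.1 annotation, and no source used here states that counting used strand, so reads of overlapping genes cannot be told apart by the tables. SYN1, which overlaps TIMP1, had 37, 45 and 44 counts in the 12, 24 and 48 h biopsies and 14 and 17 in the controls, against TIMP1 counts of 12620, 5574 and 5069 in the biopsies and 485 and 321 in the controls. ADAM17 shares its locus with IAH1, ADAM12 with FANK1, ADAM19 with NIPAL4 and ADAMTS13 with CACFD1 and SLC2A6. IAH1 had 3611, 3415 and 3244 counts in the 12, 24 and 48 h biopsies and 2511 and 2803 in the controls. ADAM17 had 2021, 1784 and 1622 in the biopsies and 1006 and 844 in the controls. CACFD1 had between 1601 and 2463 counts in any library, far above the rare ADAMTS13. The part of the overlaps in the results was not tested.

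Marker lists of cell types moved over the same libraries. The summed level of 7 fibroblast and mural cell markers was 2245, 4131 and 7047 CPM in the 12, 24 and 48 h biopsies, against 1366 and 983 CPM in the controls, with 6 of 7 called higher. The sum of 8 macrophage markers in the pig counts was 355, 477 and 688 CPM in the 12, 24 and 48 h biopsies, against 101 and 124 CPM in the controls, with 5 of 8 called higher. All 8 proximal tubule markers were called lower. Of the tested markers, 3 of 4 for podocytes and 4 of 5 for T and NK cells were called lower with the remaining one of each called higher, and 3 of 4 for the thick ascending limb were called higher. The sum of 3 dividing cell markers was 4.46, 11.4 and 125.7 CPM in the 12, 24 and 48 h biopsies, against 4.94 and 2.88 CPM in the controls. All 3 had a called rising slope over the biopsies. The part of these shifts in the levels of the protease genes was not tested.

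Change over time was read as a slope over the 3 biopsies, in log2 units per 24 h, with the controls in the fit only for the spread. In the same edgeR test, 4 members had a rising slope and 1 a falling slope, against 3.35% and 0.983% of all tested genes. These counts depend on single biopsies, with 7 rising and 0 falling (3 at an unadjusted p below 0.05) without the 12 h biopsy. They were 17 and 5 without the 24 h biopsy, 7 and 7 without the 48 h biopsy, and 7 and 3 by DESeq2. Calls over all genes moved too. Called slopes in either direction numbered 546 of 12612 in the main fit and 857 by DESeq2. Without the 12, 24 or 48 h biopsy they numbered 1005 of 12534, 2772 of 12519 and 1538 of 12501. The slope rests on 1 biopsy per time from a single graft, so that time and the single biopsies cannot be told apart.

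ADAM7, described above with 1.62, 2.83 and 12.3 CPM, had a slope of 1.98 ± 0.21 (edgeR adjusted p = 0.0020), which lost its call without the 48 h biopsy (adjusted p = 0.11). ADAMTS12, which cuts cartilage oligomeric matrix protein, stood at 11.7, 18.7 and 40.8 CPM in the 12, 24 and 48 h biopsies, against 12.5 and 8.56 CPM in the controls. The 12 h level lay between the controls and the later ones above both. Its slope was 1.19 ± 0.17 (edgeR adjusted p = 0.0075). It was the only one of the 5 called in every fit without 1 biopsy, where the control pair alone gave the spread. The difference between the groups was called by DESeq2 but not by edgeR (log2 1.17 ± 0.53, adjusted p = 0.13) unless the 12 h biopsy was left out (adjusted p = 0.040).

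ADAMTS6, an enzyme linked to the fibrillin microfibril and to heart development, stood at 0.663, 1.17 and 2.67 CPM in the 12, 24 and 48 h biopsies, against 3.72 and 3.84 CPM in the controls. It was low at 12 h and nearest to the controls at 48 h, with all biopsies below both controls. The slope was 1.31 ± 0.22 (edgeR adjusted p = 0.016) and lost its call without the 48 h biopsy (adjusted p = 0.15), and the group difference was called by DESeq2 but not by edgeR (log2 -1.34 ± 0.54, adjusted p = 0.095) unless the 48 h biopsy was left out (adjusted p = 0.0033). The overlapping gene CENPK had 149, 139 and 275 counts in the 12, 24 and 48 h biopsies and 68 and 82 in the controls, against ADAMTS6 counts of 48, 85 and 179 in the biopsies and 222 and 200 in the controls.

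MMP2, described above with the 12 h biopsy below and the later biopsies above the controls, had a slope of 0.61 ± 0.14 (edgeR adjusted p = 0.047). ADAMTS4 had the falling slope of -1.14 ± 0.23 (edgeR adjusted p = 0.031), with all 3 biopsies well above the controls. Both calls were lost without the 12 h biopsy, with an adjusted p of 0.24 for MMP2 and 0.090 for ADAMTS4. Without the 48 h biopsy the change per 24 h was 2.32 times for MMP2 and 0.219 times for ADAMTS4, both steeper than over all 3. TIMP1 had a slope of -0.72 ± 0.24 that was called by DESeq2 but not by edgeR over all 3 biopsies (adjusted p = 0.17). It was -0.02 and not called without the 12 h biopsy, and -0.80 and -2.37, both called by edgeR, without the 24 h or the 48 h biopsy.

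**Figure D3:**
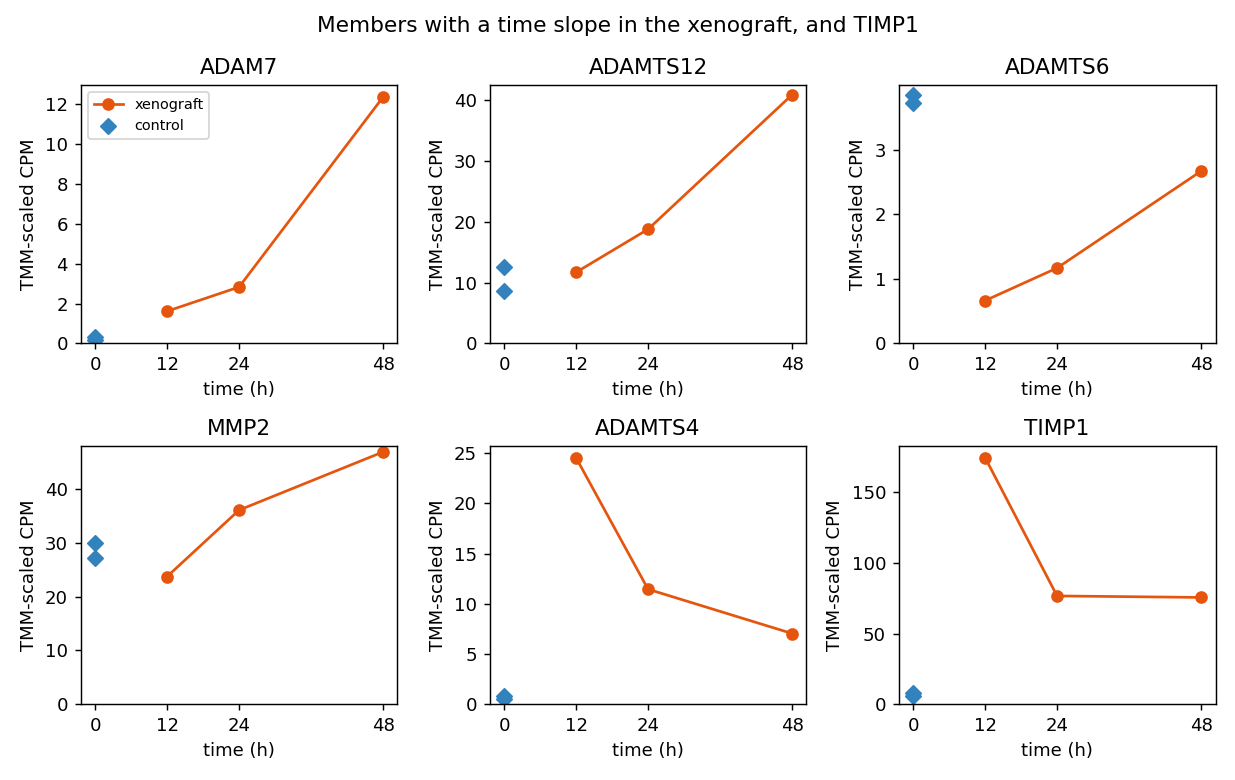
TMM-scaled CPM are plotted against time in hours for the 5 members with a called slope and for TIMP1, with xenograft biopsies joined by a line and the 2 controls as diamonds at 0 h. ADAM7, ADAMTS12, ADAMTS6 and MMP2 are highest at 48 h among the biopsies, and ADAMTS4 and TIMP1 are highest at 12 h. ADAMTS6 stays below both controls at all 3 times.

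Among the 21 genes called higher, the highest of the 3 biopsies was that at 12 h in 9 genes, at 24 h in 2 and at 48 h in 10. The 12 h genes included MMP7, TIMP1, ADAMTS4, ADAMTS9, ADAM9 and ADAM17. The 48 h genes included MMP3, MMP9, MMP14, MMP19, ADAM7, ADAM19 and ADAMTS1. Order among single biopsies is a description of these libraries.

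Each time was also set against the same 2 controls, so these comparisons share their controls. With 1 biopsy per time, only the control pair left a residual degree of freedom (1). The test leaned on a spread shared over all genes, not on that of each gene, and the lone biopsy was assumed to vary by it. At 12 h, 24 members were called higher and 9 lower, beside 28.4% and 28.2% of all tested genes. At 24 h, 26 were higher and 7 lower, beside 24.2% and 23.3%. At 48 h, 31 were higher and 4 lower, beside 26.9% and 24.6%. MMP2 had a log2 fold change of -0.27 at 12 h, 0.34 at 24 h and 0.72 at 48 h, and TIMP1 had 4.61, 3.42 and 3.40 at these times, given as values since the spread of a lone biopsy is not measured.

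Reads of the same libraries were also counted on the human genome, where reads of human cells and pig reads similar to human sequence both appear. Controls, which hold pig kidney alone by their labels, give the level that pig reads reach there. The human table held 94 symbols of the same pattern, 46 of them tested, with 20 called higher and 3 lower in the xenograft, against 19.3% and 15.9% of all 18403 tested genes. Of the 20, ADAM8, ADAM12, ADAM28, MMP8, MMP9 and MMP25 passed the minimum on low counts through the biopsies alone, so that they could enter the test only by being higher there, and their calls are given as a description. The 2 tables were normalized separately, so the human counts are set here beside the pig counts of the same gene and library, as human counts per 100 pig counts.

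MMP7 had 3.56, 3.51 and 3.51 human counts per 100 pig counts in the 12, 24 and 48 h biopsies, against 3.79 and 4.78 in the controls. TIMP1 had 19.6, 23.4 and 31.6 in the biopsies, against 19.4 and 20.9 in the controls. ADAM10 had 72.1, 70.7 and 73.0 in the biopsies, against 68.4 and 71.9 in the controls. For MMP7 the ratio was below both controls in every biopsy, for ADAM10 it was close to the controls, and for TIMP1 the 48 h biopsy stood above the other libraries. Among the members tested in the human table with a control ratio above 0, the pooled xenograft ratio was 0.766 to 2.15 times the pooled control ratio in 39, with a median of 1.06, and higher in the 3 that follow. Members with too few human counts to be tested are not in this range, among them ADAM33 with 0, 0 and 7 human counts in the 12, 24 and 48 h biopsies and 1 and 7 in the controls.

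MMP25, ADAM8 and MMP9, all known from neutrophils or other leukocytes, were set apart from that range, which was taken without them. Their pooled xenograft ratios were 37.1, 22.9 and 6.06 times the control ratios. Over 10941 symbols with at least 10 control counts in each table and 10 pig counts in the biopsies, the median was 1.17. Its 5% and 95% points were 0.901 and 2.67. These 3 genes had too few human control counts to be among those symbols. MMP25, or leukolysin, a membrane-anchored MMP of neutrophils, had 75, 59 and 55 human counts in the 12, 24 and 48 h biopsies, against 0 and 2 in the controls. It was called higher in the human table by edgeR (log2 5.20 ± 0.69), while its pig counts of 84, 67 and 53 in the biopsies and 33 and 47 in the controls were not called (log2 0.40 ± 0.38, adjusted p = 0.44). Pooled over libraries there were 92.6 human counts per 100 pig counts in the xenograft and 2.50 in the controls, a 37.1-fold difference.

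ADAM8 had 53, 40 and 59 human counts in the 12, 24 and 48 h biopsies, against 3 and 1 in the controls. It was called 15.7-fold higher in the human table (log2 3.97 ± 0.55), whereas the pig counts were not called as given above. The pooled ratio was 137 human counts per 100 pig counts in the xenograft and 5.97 in the controls. MMP9 had 64, 51 and 52 human counts in the 12, 24 and 48 h biopsies, against 3 and 1 in the controls, and was called 17.2-fold higher (log2 4.10 ± 0.52). Its pooled ratio was 127 in the xenograft and 21.1 in the controls. Its pig counts were 34, 41 and 56 in the 12, 24 and 48 h biopsies and 14 and 5 in the controls. The part of human reads in these pig counts was not tested. Without control 1 the human fold of ADAM8 was 27.6 and that of MMP9 30.3, and that of MMP25 ran between 17.8 and 465 as either control was left out, since control counts were few.

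MMP8 had 19, 23 and 10 human counts in the 12, 24 and 48 h biopsies and none in either control, so that it was at least 7.42-fold higher against a floor of 3 counts over the controls. Human counts summed over 8 neutrophil markers were 14060, 8743 and 9643 in the 12, 24 and 48 h biopsies, against 7 and 5 in the controls. Summed over 8 macrophage markers they were 14227, 15800 and 23191 in the biopsies, against 591 and 641 in the controls. The part of these cells in the 4 genes was not tested.

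**Figure D4:**
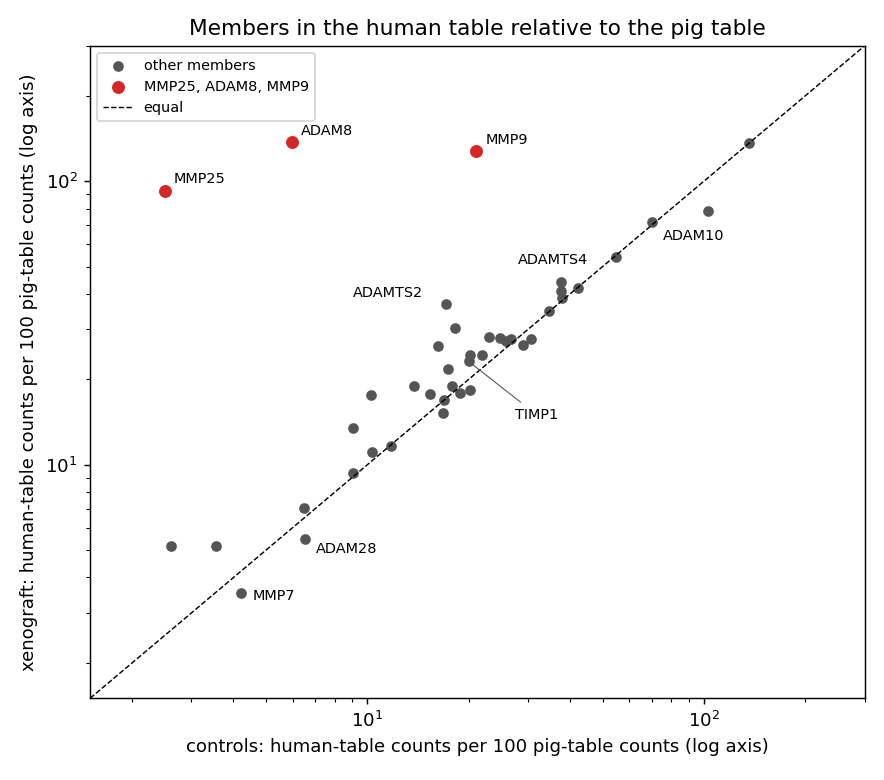
Each point is 1 of 42 members tested in the human table, with human-table counts per 100 pig-table counts pooled over the 3 biopsies on the vertical axis and over the 2 controls on the horizontal axis, both on log axes. Most points lie near the dashed line of equal ratios, MMP7 and ADAM10 among them. MMP25, ADAM8 and MMP9, in red, lie above it, at 92.6, 137 and 127 in the xenograft against 2.50, 5.97 and 21.1 in the controls.

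Other named members were called in the human table too. MMP7 rose 55.6-fold in the human table, ADAMTS4 19.8-fold, TIMP1 14.3-fold, MMP19 6.39-fold, ADAM12 4.90-fold and ADAM28 4.78-fold, in the edgeR fit. ADAM12 lost its human call without control 1, and ADAM28 without either control. MMP1, the interstitial collagenase, had 4, 8 and 21 human counts in the 12, 24 and 48 h biopsies and none in the controls, and was too rare to be tested. TIMP2, which binds MMP14 in the activation of MMP2, had 1251, 1111 and 1792 human counts in the biopsies, against 410 and 268 in the controls (log2 1.41 ± 0.24, edgeR adjusted p = 0.0019). The control counts show that pig reads reach TIMP2 there. It has no pig counts to be set beside, so its rise cannot be assigned to either species. ADAMDEC1, a macrophage-associated relative of ADAM28, had 51, 50 and 182 human counts in the biopsies, against 2 and 0 in the controls.

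Genes that activate or restrain the proteases were listed apart from the members, with 9 higher and 3 lower of 19 tested and a median log2 fold change of 1.02. The shares of all tested genes beside this and the following lists are 18.5% higher and 19% lower, with a median of 0.03. All of these lists were chosen with earlier results of these data known. TFPI2, a matrix-bound inhibitor of plasmin, rose by 3.19 ± 0.20 and PLAT, or tissue plasminogen activator, by 2.85 ± 0.34 on the log2 scale. PLAUR, the urokinase receptor, rose 7.97-fold (edgeR adjusted p = 2.8e-04). An inhibitor and activating proteins of the plasmin system were thus both among the genes called higher, whereas PLG, or plasminogen, was called lower (log2 -1.53 ± 0.35, edgeR adjusted p = 0.014). The other genes of the list called lower were SPOCK1 and PAPLN (log2 -1.01 ± 0.23 and -1.14 ± 0.16). The median of the list was 1.28 without control 1 and 0.79 without control 2, beside 0.05 and 0.03 over all tested genes. Fewer genes were called in both fits, in the list and over all tested genes.

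Regulators of ADAM10 and ADAM17 numbered 9 tested, with 1 higher, 2 lower and a median of 0.03, beside 18.5% and 19% of all tested genes. RHBDF2, or iRhom2, which carries ADAM17 to the cell surface, stood at 11.9, 11.2 and 12.2 CPM in the 12, 24 and 48 h biopsies, against 4.54 and 5.11 CPM in the controls (log2 1.29 ± 0.17, edgeR adjusted p = 0.0019). TSPAN33 and TSPAN5, tetraspanins that bind ADAM10, were lower (log2 -1.05 ± 0.17 and -0.86 ± 0.21). TSPAN33 lost its call without control 2, and TSPAN5 without either control.

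Among 23 tested membrane proteins that ADAM10 or ADAM17 release from the cell surface, 9 were higher and 5 lower, with a median of 0.44, beside 18.5% and 19% of all tested genes. TNFRSF1B, a TNF receptor, was at 119.8, 86.7 and 91.0 CPM in the 12, 24 and 48 h biopsies, against 14.0 and 12.2 CPM in the controls (log2 2.92 ± 0.19, edgeR adjusted p = 2.8e-04). The EGF receptor ligand EREG rose by 1.98 ± 0.36, and the adhesion molecule ICAM1 by 1.87 ± 0.28 on the log2 scale. EREG lost its call without either control and ICAM1 without control 2. The median of the list was 0.72 without control 1 and 0.41 without control 2, with fewer genes called in both fits, as over all tested genes.

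Matrix proteins cut by these enzymes were higher in 19 and lower in 2 of 27 tested, with a median log2 fold change of 1.35. Among all tested genes, 18.5% were higher and 19% lower. COL1A1, COL1A2, COL3A1, DCN and LUM are also in the list of fibroblast and mural cell markers, so the 2 lists are not separate observations. SPP1, or osteopontin, stood at 7821, 4247 and 4569 CPM in the 12, 24 and 48 h biopsies, against 75.5 and 74.1 CPM in the controls (log2 6.21 ± 0.40, edgeR adjusted p = 2.7e-04). Tenascin TNC rose by 2.49 ± 0.39 and COL3A1, a fibrillar collagen, by 2.33 ± 0.56 on the log2 scale. TNC lost its call without control 2 and COL3A1 without either control, and COL3A1 was 3.26-fold higher without the 48 h biopsy. The median of the list was 1.62 without control 1 and 1.09 without control 2, with fewer genes called higher in both fits. Without the 24 h biopsy 13 were called higher, while calls over all tested genes went from 4731 to 3762.

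Of 6 tested relatives from other metzincin families, 2 were higher and 2 lower, beside 18.5% and 19% of all tested genes. TLL1 and BMP1, procollagen C-proteinases, rose by 2.12 ± 0.55 and 0.66 ± 0.15 on the log2 scale, and MEP1B, a meprin subunit of the proximal tubule brush border, and PAPPA2, which cuts insulin-like growth factor binding proteins, were lower (log2 -1.14 ± 0.31 and -1.01 ± 0.20). All 4 calls were made by edgeR at an adjusted p of up to 0.029. All 4 were lost without control 1, and those of TLL1, BMP1 and MEP1B without control 2 as well. TLL1 was 7.60-fold higher without control 1, against 4.35-fold over all libraries, and was also not called without the 24 h biopsy.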

How the data were processed

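The authors deposited whole-number read counts per gene symbol in 2 tables, for a pig and for the human genome, without normalization as the values show. Hg38 is named as a build in the submitters' processing notes, and the aligner, counting tool, strand setting and annotation are not given in the sources used here. Per the labels' protocols, RNA of core biopsies was extracted and ribosomal RNA removed. The analysis used edgeR 4.0.16 under R 4.3.3 with TMM scaling, filterByExpr (minimum count 10, minimum total 15) and the robust quasi-likelihood test fitted on all genes, with Benjamini-Hochberg adjustment at 0.05. DESeq2 1.42.0 was an alternative. Rows of RNA families that name no gene (0.00141% of pig counts) and sex-linked markers were left out. The fit of xenograft against controls had 3 residual degrees of freedom, that of the slope 2 and that of single times 1. Libraries of the control pair differed beyond sampling noise (chi-square per degree of freedom 212 over 12694 genes) and were entered as 2 samples, which does not show that they came from separate animals. Floors of 3 counts cover counting error only.

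All 66 members were found in a table of Ensembl names and 62 in the RefSeq table of Sscrofa11.1, used for names and neighbours. Values in every library are given for the 10 largest changes among members called higher and up to 10 called lower, all slope members, all TIMP genes and a set of well-known members, and other lists show up to 4 called genes with the largest change, some of which are not reported here. Members and lists were chosen with earlier results of these data known. Alternatives were other scaling, DESeq2, no filter, mitochondrial genes removed, log2 of time, human scaling by the pig table and leaving out each library.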

Additional observations from a re-analysis of the deposited data

Results flagged for a closer look

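In 5 members the difference from the controls was not the same at the 3 times, by the test of the slope across the biopsies (edgeR, adjusted p below 0.05). The slope in log2 units per 24 h was 1.98 for ADAM7, 1.31 for ADAMTS6, 1.19 for ADAMTS12, 0.61 for MMP2 and -1.14 for ADAMTS4. Each time is 1 biopsy, and time cannot be told apart from differences between single biopsies.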

How the results depend on the processing

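No paired analysis was possible because the biopsies carry no replicate numbers and each time has 1 biopsy. Of the 25 members called between xenograft and controls, 9 stayed called in each of 5 fits without 1 library: MMP7, MMP19, ADAM9, ADAM12, ADAM15, ADAM28, ADAMTS1, TIMP1 and TIMP3. Without a library, members called higher ranged between 10 and 24 and lower between 0 and 7, slope members between 7 and 17 rising and between 0 and 7 falling, and human-table members between 16 and 20 higher and between 0 and 5 lower. Where a count was 0, 3 or 4 members had an unadjusted edgeR p below 0.05. The number of calls over all tested genes shifted in these fits too, and those without a control rest on a single control library. DESeq2 called 7 rising and 3 falling slopes, among them ADAMTS9, MMP19 and TIMP1, and log2 of time gave 2 falling slopes. Against controls DESeq2 called 4 members lower at 24 h and 2 lower at 48 h. The log2 fold change of ADAMTS13 ranged between -0.47 and 0.18 and that of ADAM8 between -0.62 and 0.048 as a library was left out, with the sign turned for ADAMTS13 without control 2 or the 12 h biopsy (0.12) and for ADAM8 without the 48 h biopsy. Neither was called in the fits where it was tested, and the cause was not tested. The median log2 change of all genes was 0.03 under TMM, 0.11 under upper quartile scaling and, in the human table, 0.05 under its own scaling and 0.35 under that of the pig table. Fits at single times without a control were not run, since no residual degree of freedom is left. Pig genes under the minimum of 10 counts were not tested and allow no statement on a difference at this depth, apart from the bound given for MMP27. A read similar in both genomes can count in both tables.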
